A study of Homo sapiens with 3 samples.

Results

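The genes described here encode 9 receptor tyrosine kinases with roles in cell invasion: MET, EPHA2, EPHB2, EPHB4, PDGFRA, PDGFRB, FGFR1, IGF1R and DDR1. Their peaks are those of the Fra-1 and Fra-2 lists whose centre lies in the body of such a gene or within 100 kb of one of its annotated transcription start sites (TSS), in genome build hg19 with GENCODE 44 gene models lifted to GRCh37. That choice, called reach below, gave 20 peaks out of 9998 (Fra-1) and 33 out of 13003 (Fra-2), at 9 of 20098 protein-coding genes. The lists come from chromatin immunoprecipitation followed by sequencing (ChIP-seq) with an antibody to Fra-1 or to Fra-2, beside an input DNA sample, all from MDA-MB-231 cells kept at 37°C and 5% CO2 in medium with 10% serum, with no treatment named. MDA-MB-231 is an established cell line from a human triple-negative breast carcinoma. The labels mention 2 independent replicates of each, but a single peak list per antibody was analysed and the input was not used here, so no count below has a spread between replicates and no difference was tested. The lists give positions alone, on a grid of 50 bp, and the read depth behind them is unknown. A gene without a peak is therefore a gene without a called peak, not a gene shown to be free of either protein.

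Receptor tyrosine kinases sit in the cell membrane, bind a ligand outside and phosphorylate each other inside, which starts the RAS and ERK cascade, PI3 kinase signalling and changes in adhesion and movement. Fra-1 (gene FOSL1) and Fra-2 (gene FOSL2) are Fos family proteins that pair with Jun proteins to form AP-1, a DNA-binding dimer whose Fos members are made and stabilised in response to ERK. MET binds hepatocyte growth factor and drives cell scattering. EPHA2, EPHB2 and EPHB4 bind ephrins on neighbouring cells, PDGFRA and PDGFRB bind platelet-derived growth factors and are best known from mesenchymal cells, FGFR1 binds fibroblast growth factors, IGF1R binds insulin-like growth factors, and DDR1 binds collagen.

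The sequences below carry the pattern of the members' peaks: shared peaks with the AP-1 element, peaks without it, and peaks of a single list. The AP-1 element is TGACTCA, which reads TGAGTCA on the other strand, and the TEAD element, bound by partners of the YAP and TAZ coactivators, was taken as GGAATGC or GGAATGT on either strand. Capitals mark these elements. Each sequence is the plus strand of GRCh37 from the start of the peak to the base before its listed end, as ends were read as the start of the next 50 bp step. Peaks that touch an exon outside coding sequence are not shown. Shared peaks with an AP-1 element at MET and the ephrin receptors come first.
MET, intron 14, in both lists, Fra-1 peak, chr7:116412701-116412850: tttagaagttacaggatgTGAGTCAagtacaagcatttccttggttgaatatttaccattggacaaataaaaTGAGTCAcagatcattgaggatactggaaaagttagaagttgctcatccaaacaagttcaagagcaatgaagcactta
EPHA2, intron 3, in both lists, chr1:16465401-16465700: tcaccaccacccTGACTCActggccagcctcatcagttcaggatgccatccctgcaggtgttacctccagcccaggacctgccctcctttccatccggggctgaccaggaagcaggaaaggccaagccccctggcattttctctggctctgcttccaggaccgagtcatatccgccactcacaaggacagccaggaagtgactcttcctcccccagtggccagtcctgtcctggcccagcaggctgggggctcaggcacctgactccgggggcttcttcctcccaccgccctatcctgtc
EPHA2, intron 3, in both lists, chr1:16472201-16472350: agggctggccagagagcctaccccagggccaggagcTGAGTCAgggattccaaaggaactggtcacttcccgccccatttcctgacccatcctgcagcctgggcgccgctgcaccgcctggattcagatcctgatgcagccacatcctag
EPHA2, upstream, in both lists, chr1:16500151-16500350: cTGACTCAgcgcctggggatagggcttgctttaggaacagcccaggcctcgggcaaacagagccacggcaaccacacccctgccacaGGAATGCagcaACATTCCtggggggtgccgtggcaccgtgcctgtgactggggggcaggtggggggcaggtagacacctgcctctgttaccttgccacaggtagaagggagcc
EPHB2, intron 1, in both lists, Fra-1 peak, chr1:23073951-23074250: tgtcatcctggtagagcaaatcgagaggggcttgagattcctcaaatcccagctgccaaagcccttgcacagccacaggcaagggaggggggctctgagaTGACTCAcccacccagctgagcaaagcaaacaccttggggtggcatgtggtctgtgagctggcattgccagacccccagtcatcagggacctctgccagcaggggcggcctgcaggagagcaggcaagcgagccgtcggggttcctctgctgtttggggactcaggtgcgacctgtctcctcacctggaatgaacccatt
EPHB2, intron 3, in both lists, Fra-2 peak, chr1:23158601-23158850: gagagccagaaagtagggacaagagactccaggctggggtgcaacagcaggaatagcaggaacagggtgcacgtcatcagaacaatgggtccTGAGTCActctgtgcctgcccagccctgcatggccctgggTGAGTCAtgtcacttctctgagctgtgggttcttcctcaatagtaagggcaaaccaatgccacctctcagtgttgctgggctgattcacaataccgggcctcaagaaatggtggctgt

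The next sequences are a shared peak of IGF1R, and then peaks that lack the AP-1 element or belong to a single list.
IGF1R, intron 4, in both lists, Fra-1 peak, chr15:99440151-99440400: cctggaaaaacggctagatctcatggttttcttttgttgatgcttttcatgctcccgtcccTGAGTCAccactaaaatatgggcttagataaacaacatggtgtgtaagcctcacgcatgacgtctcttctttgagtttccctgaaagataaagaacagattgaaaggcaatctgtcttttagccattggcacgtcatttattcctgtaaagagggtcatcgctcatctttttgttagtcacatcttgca
IGF1R, intron 2, in both lists, Fra-1 peak, no AP-1 element, chr15:99271001-99271100: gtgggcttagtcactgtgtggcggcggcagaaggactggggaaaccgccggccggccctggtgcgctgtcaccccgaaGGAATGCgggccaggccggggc
MET, intron 2, in both lists, no AP-1 element, chr7:116346751-116346850: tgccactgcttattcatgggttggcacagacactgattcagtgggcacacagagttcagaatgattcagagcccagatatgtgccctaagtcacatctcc
EPHA2, intron 3, Fra-1 list, no AP-1 element, chr1:16470501-16470650: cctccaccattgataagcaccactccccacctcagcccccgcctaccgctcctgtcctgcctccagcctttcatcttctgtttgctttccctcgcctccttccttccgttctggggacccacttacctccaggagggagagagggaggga
MET, downstream, Fra-2 list, chr7:116441201-116441350: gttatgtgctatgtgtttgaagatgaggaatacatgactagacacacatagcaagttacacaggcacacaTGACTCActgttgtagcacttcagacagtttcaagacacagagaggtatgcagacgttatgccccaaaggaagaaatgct
IGF1R, upstream, Fra-2 list, chr15:99153001-99153100: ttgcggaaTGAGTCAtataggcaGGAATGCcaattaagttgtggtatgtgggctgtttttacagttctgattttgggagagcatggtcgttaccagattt
EPHB4, downstream, Fra-2 list, chr7:100392101-100392200: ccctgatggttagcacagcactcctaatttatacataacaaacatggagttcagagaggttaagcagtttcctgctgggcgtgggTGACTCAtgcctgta
DDR1, intron 1, Fra-2 list, chr6:30853901-30854100: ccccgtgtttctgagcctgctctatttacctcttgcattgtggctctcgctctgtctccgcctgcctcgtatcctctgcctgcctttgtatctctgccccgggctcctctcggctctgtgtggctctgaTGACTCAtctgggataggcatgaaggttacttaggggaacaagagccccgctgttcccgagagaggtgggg

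Peaks lay in reach of most of the 9 receptor genes. Of the 9, 7 had a Fra-1 peak and 8 a Fra-2 peak, where 45.3% and 58.6% of all protein-coding genes had one. Peaks of both lists were in reach of 7 of the 9, against 42.7% of all genes, and at each of these 7 at least 1 Fra-1 peak overlapped a Fra-2 peak, as at 40.6% of all genes. EPHB4 had a Fra-2 peak alone, and PDGFRA had neither, like 38.8% of all genes. The median member had 2 Fra-1 and 4 Fra-2 peaks, and the median gene of the genome 0 and 1. The members also had a longer reach, at least 220 kb with a median of 248 kb, where the median gene had 211 kb. A longer reach can hold more peaks. Per Mb of reach, the median member had 7.49 Fra-1 and 13.6 Fra-2 peaks, and the median gene 0 and 4.33. Fra-2 peaks outnumbered Fra-1 peaks at 7 members, as at 36.1% of all genes, counts were equal at EPHB2 and PDGFRA, and no member had more Fra-1 than Fra-2 peaks, as 6.92% of all genes had. The Fra-2 list is the longer, and this order changed at some members when it was shortened. The shortening removed narrow Fra-2 peaks and left the Fra-1 list whole, so list length and peak width cannot be told apart. The cut fell among Fra-2 peaks of 100 bp, the narrowest width, and a single random draw settled which of these stayed. Another draw could give other Fra-2 counts at MET, EPHA2, EPHB2, EPHB4, FGFR1, IGF1R and DDR1, which all had peaks of that width. The Fra-2 list was shortened to as many of its widest peaks as the Fra-1 list holds. In the draw used, Fra-1 peaks were then more numerous at MET (4 against 3) and EPHB2 (3 against 2), as at 12.1% of all genes. In that setting Fra-2 peaks were more numerous at 4 members, EPHA2, PDGFRB, FGFR1 and DDR1, as at 25.8% of all genes, the counts were equal at 3, and the peak of EPHB4 was no longer listed.

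**Figure D1:**
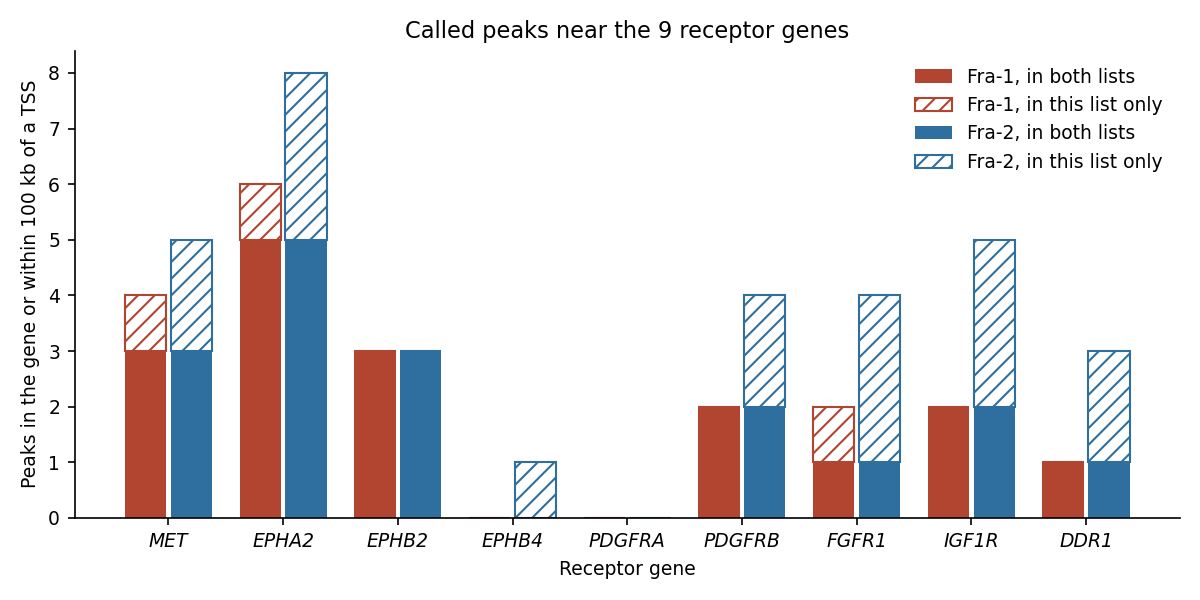
Number of Fra-1 (red, left bar) and Fra-2 (blue, right bar) peaks in the gene or within 100 kb of a TSS for each of the 9 receptor genes. Solid parts are peaks that overlap a peak of the other list by at least 1 bp and hatched parts are peaks of that list alone. EPHA2 has the tallest bars, at 6 and 8, and PDGFRA has none.

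Most Fra-1 peaks of the members were also in the Fra-2 list. Overlap by at least 1 bp paired 17 of the 20 Fra-1 peaks (85.0%, 62.1 to 96.8) with 17 of the 33 Fra-2 peaks (51.5%, 33.5 to 69.2), so that the peaks cover 36 separate regions, 17 in both lists, 3 with a Fra-1 peak alone and 16 with a Fra-2 peak alone. Outside repeat-like regions, to which none of the members' peaks belonged, the shares over whole lists were 79.4% for Fra-1 and 59.1% for Fra-2, values inside the members' intervals. These intervals and those below are 95% exact binomial (Clopper-Pearson), cover counting error alone and treat neighbouring peaks as independent. The paired peaks had a median of 0 bp and at most 50 bp between their centres. In 7 pairs both ends coincided, the Fra-1 peak was the wider in 3 pairs, the widths were equal in 9 and the Fra-2 peak was the wider in 5.

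**Figure D2:**
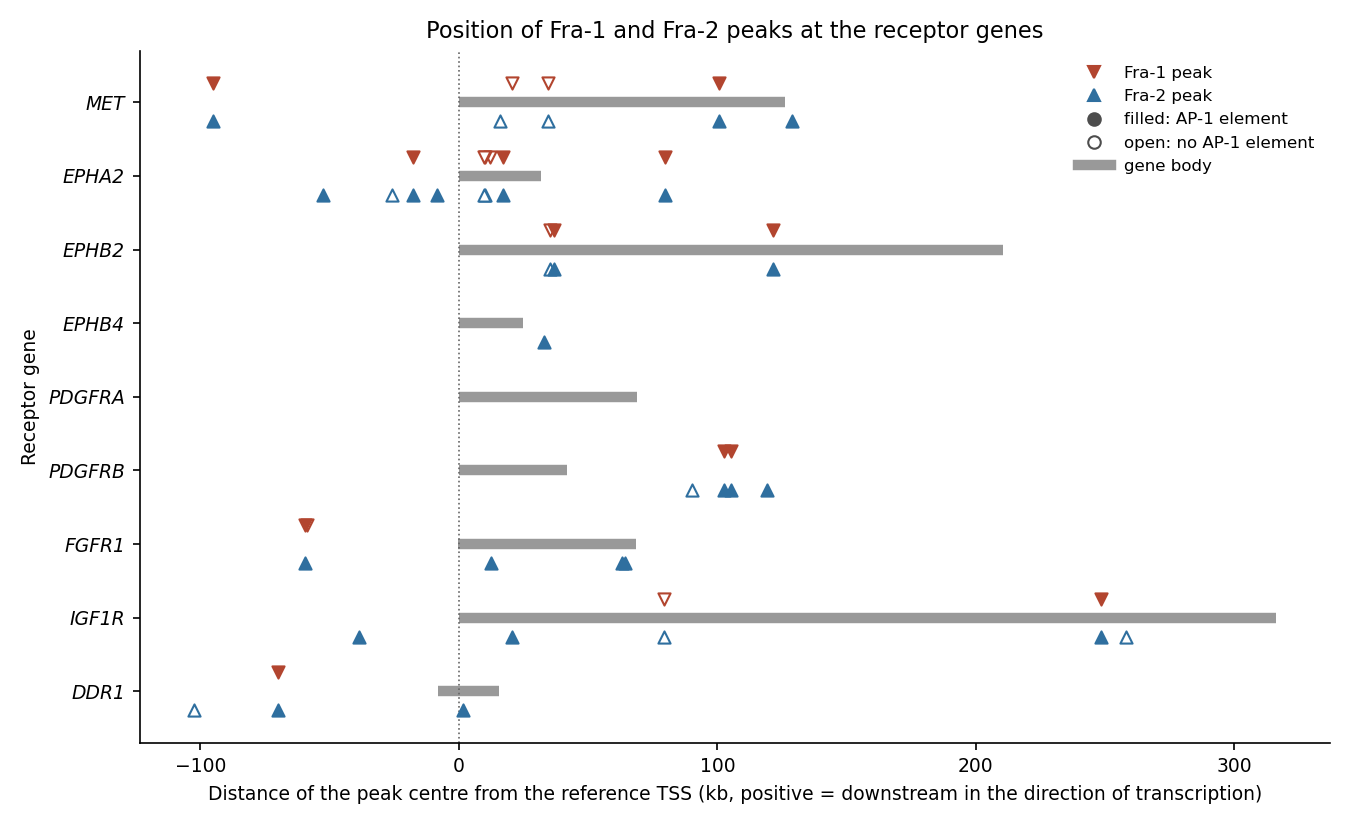
Position of each Fra-1 (red, above the gene) and Fra-2 (blue, below) peak centre relative to the TSS of the reference transcript (MANE Select), in kb along the direction of transcription, with the gene body as a grey bar. Filled symbols have an AP-1 element in the peak or within 100 bp of its centre and open symbols have none. Most peaks lie in introns or far outside the gene, none lies within 1 kb of that TSS, and symbols under 1 kb apart cover each other (filled over open for Fra-1 at FGFR1, open over filled in both lists at EPHA2).

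EPHA2, an ephrin-A receptor abundant in basal breast cancer, had more peaks than any other member at a reach of 100 kb, 6 of Fra-1 and 8 of Fra-2, with 5 sites in both lists (chromosome 1, 16450832 to 16482564, minus strand). At least as many Fra-1 peaks were in reach of 1.77% of all protein-coding genes, and at least as many Fra-2 peaks also of 1.77%. That rank depended on the setting. Among peaks at least 200 bp wide EPHA2 had 2 Fra-1 peaks, as did EPHB2 and FGFR1, and 3 Fra-2 peaks, against 4 at PDGFRB. Its Fra-2 count equalled that of IGF1R within 10 kb (4 each) and by nearest TSS (5 each). Per length of reach at 100 kb, EPHA2 had 27.0 peaks per Mb for Fra-1 and 36 for Fra-2, a density that 0.796% and 0.940% of genes reached, where the median gene had 0 and 4.33.

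A group of EPHA2 peaks lay in intron 3 of the reference transcript, and 3 of their sequences are printed above. The widest was 300 bp in both lists, from 16465401 to 16465701, 17.0 kb from the reference TSS, and carried TGACTCA near its edge rather than within 100 bp of its centre. A Fra-1 peak without a partner, from 16470501 to 16470651, lay 12 kb from the reference TSS and had no AP-1 element. The pair from 16472201 to 16472351 carried TGAGTCA 36 bp from its centre. About 0.7 kb from it, the Fra-1 peak from 16472851 to 16473001 and the Fra-2 peak from 16472901 to 16473001 had their centres 19 bp and 6 bp from an annotated EPHA2 TSS. That TSS belongs to a transcript not classed as protein-coding, the Fra-1 centre was 9.64 kb from the reference TSS, and the pair had no AP-1 element.

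Outside the gene, the shared EPHA2 peak 17.7 kb upstream, from 16500151 to 16500351, had the AP-1 element at its very edge, 96 bp from the centre, and 2 TEAD elements of opposite strands in the middle, as its sequence shows. A further shared peak, from 16402651 to 16402801, lay 79.8 kb downstream of the reference TSS and 2.58 kb from a TSS of FAM131C. Of the 3 peaks in the Fra-2 list alone, those from 16490801 to 16490901 and from 16534901 to 16535051 held TGACTCA or TGAGTCA and that from 16508401 to 16508601 did not. The first of these was 8.29 kb upstream of EPHA2, and the others were nearest to a TSS of ARHGEF19. Every EPHA2 peak was also in reach of at least 1 other protein-coding gene, so these peaks cannot be assigned to EPHA2 by position.

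EPHB2, an ephrin-B receptor, had 3 Fra-1 and 3 Fra-2 peaks, and all 3 were pairs (chromosome 1, 23037332 to 23247993, plus strand). All lay in introns of EPHB2. Those in intron 1 stood 1.35 kb (Fra-1) and 1.30 kb (Fra-2) apart, about 36 kb from the reference TSS. The one of 300 bp, from 23073951 to 23074251 (Fra-1) and from 23073901 to 23074201 (Fra-2), had an AP-1 element, and its neighbour from 23072651 to 23072851 (Fra-1) had none. The pair in intron 3, 121 kb from the reference TSS, was narrower in the Fra-1 list, at 150 bp, than for Fra-2, at 250 bp, and held 2 AP-1 elements. At least 3 Fra-1 peaks were in reach of 11.8% of all genes and at least 3 Fra-2 peaks in reach of 20.6%, and the reach of EPHB2, at 354 kb, exceeded the median of 211 kb over all genes.

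EPHB4, the ephrin-B receptor known from veins and from breast tumours, had no Fra-1 peak and 1 Fra-2 peak (chromosome 7, 100400187 to 100425145, minus strand). The peak, from 100392101 to 100392201, was 100 bp wide, the narrowest width in the lists, and held TGACTCA. It lay 33.0 kb downstream of the reference TSS in an intron of ZAN and in reach of 8 other genes, among them EPO, the erythropoietin gene. The nearest Fra-1 peak was 318 kb from a TSS of EPHB4.

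MET had 4 Fra-1 and 5 Fra-2 peaks, of which 3 were shared (chromosome 7, 116312250 to 116438431, plus strand). At least as many were in reach of 6.18% and 7.23% of all genes, and per length MET had 13.4 peaks per Mb for Fra-1 and 16.8 for Fra-2, which 8.19% and 9.48% of genes reached. Both factors had 3 peaks inside the gene. Its Fra-2 density was close to that of PDGFRB, at 16.6 peaks per Mb.

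The shared MET peak in intron 14 of the reference transcript, from 116412701 to 116412851 (Fra-1) or 116412801 (Fra-2), held 2 copies of TGAGTCA, as printed above. It follows the exon for the juxtamembrane segment, through which MET is marked for degradation, and lay 3.06 kb (Fra-1) and 3.03 kb (Fra-2) from the TSS of a shorter coding transcript of MET. The shared peak in intron 2, from 116346751 to 116346851, was 100 bp wide in both lists and had no AP-1 element. In intron 1 each list had a peak of its own without the element, from 116332851 to 116333001 for Fra-1 and from 116328051 to 116328201 for Fra-2. The shared peak from 116217151 to 116217351, with TGACTCA, lay 95 kb upstream of MET and nearer to a TSS of CAV1, the caveolin-1 gene, at 50.9 kb. Downstream of the gene, the Fra-2 list had a peak from 116441201 to 116441351 with TGACTCA 2 bp from its centre, nearest to CAPZA2, an actin capping protein gene, at 9.85 kb.

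The platelet-derived growth factor receptors had no peak in their gene bodies. PDGFRA had none in reach in either list (chromosome 4, 55095447 to 55164412, plus strand). The nearest Fra-1 peak, from 55244151 to 55244251, lay just outside, 101 kb from a TSS of PDGFRA, and the nearest Fra-2 peak was at 147 kb. PDGFRB had 2 Fra-1 and 4 Fra-2 peaks (chromosome 5, 149493402 to 149535435, minus strand), all downstream of the gene and between 49.5 kb and 78.2 kb from the closest of its TSSs. All 6 were also in reach of CSF1R, the receptor gene for colony-stimulating factor 1 and the neighbour of PDGFRB, and 5 of them were nearest to it.

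Both Fra-1 peaks of PDGFRB, from 149429851 to 149430101 and from 149432901 to 149433051, were shared and had an AP-1 element. By the Fra-1 centre, the first lay in a coding exon of HMGXB3, and its Fra-2 partner in an intron, while the second lay in an untranslated exon of CSF1R. The Fra-2 peaks without a partner, from 149416201 to 149416401 and from 149444901 to 149445151, lay in a coding exon of HMGXB3, with the element, and in an intron of CSF1R, without it. The first of these, 78.2 kb from the closest TSS of PDGFRB and 101 kb from the closest coding one, dropped out when TSSs of coding transcripts alone were used.

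FGFR1 had 2 Fra-1 and 4 Fra-2 peaks and shared 1 of them (chromosome 8, 38257733 to 38326352, minus strand). The shared peak, from 38385651 to 38385951 in both lists, was 300 bp wide, lay 59.6 kb upstream of the reference TSS and held 2 AP-1 elements. The other Fra-1 peak, from 38384901 to 38385101, lay 0.8 kb from it and had none, and both were in reach of no other protein-coding gene. The Fra-2 list alone had 3 peaks in the FGFR1 gene body, all with an AP-1 element within 100 bp of the centre. That from 38313701 to 38313801 was in intron 2, 1.21 kb from an FGFR1 TSS. The others, from 38261801 to 38261951 and from 38262801 to 38262901, were at the far end of the gene, outside its reference transcript and 0.055 kb and 0.92 kb from a TSS of LETM2.

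IGF1R had 2 Fra-1 and 5 Fra-2 peaks, and both Fra-1 peaks were shared (chromosome 15, 99191768 to 99507759, plus strand). Its reach of 504 kb was the longest among the members, and its density of 3.97 peaks per Mb for Fra-1 and 9.92 for Fra-2 was exceeded or reached by 39.4% and 22.4% of genes. Of its 7 peaks, 6 were in reach of no other protein-coding gene. A shared peak, from 99440151 to 99440401 (250 bp, Fra-1) and from 99440101 to 99440551 (450 bp, Fra-2, the widest of all members' peaks), lay in intron 4, 249 kb from the reference TSS. Its centre was 0.239 kb (Fra-1) and 0.189 kb (Fra-2) from the TSS of an IGF1R transcript not classed as protein-coding, and the Fra-2 peak spanned 2 AP-1 elements, of which the Fra-1 peak held 1.

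The other shared IGF1R peak, in intron 2, had no AP-1 element and a TEAD element, and the bases within 100 bp of its centre had a GC content of 68.2%, the highest among the members' peaks. Among the 3 Fra-2 peaks of IGF1R without a partner, those from 99153001 to 99153101 and from 99212251 to 99212351 held TGAGTCA, and the peak from 99153001 lay 38.7 kb upstream and had a TEAD element beside it. The third, from 99449801 to 99449901 in intron 5, had neither element.

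DDR1, the collagen receptor, had 1 Fra-1 and 3 Fra-2 peaks (chromosome 6, 30844198 to 30867933, plus strand). The shared peak, from 30782151 to 30782251 (Fra-1) or 30782301 (Fra-2), held TGAGTCA and lay 70.1 kb upstream of the reference TSS. A Fra-2 peak from 30853901 to 30854101, in intron 1 of the reference transcript, was 0.435 kb upstream of the TSS of a coding DDR1 transcript and held TGACTCA. The last Fra-2 peak, from 30749651 to 30749751, had no AP-1 element and lay 94.5 kb from a DDR1 TSS, just inside reach, and nearer to IER3. A Fra-1 and a Fra-2 peak, both from 30737101 to 30737701, stood just outside at 107 kb. All DDR1 peaks were in reach of other genes too.

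**Figure D3:**
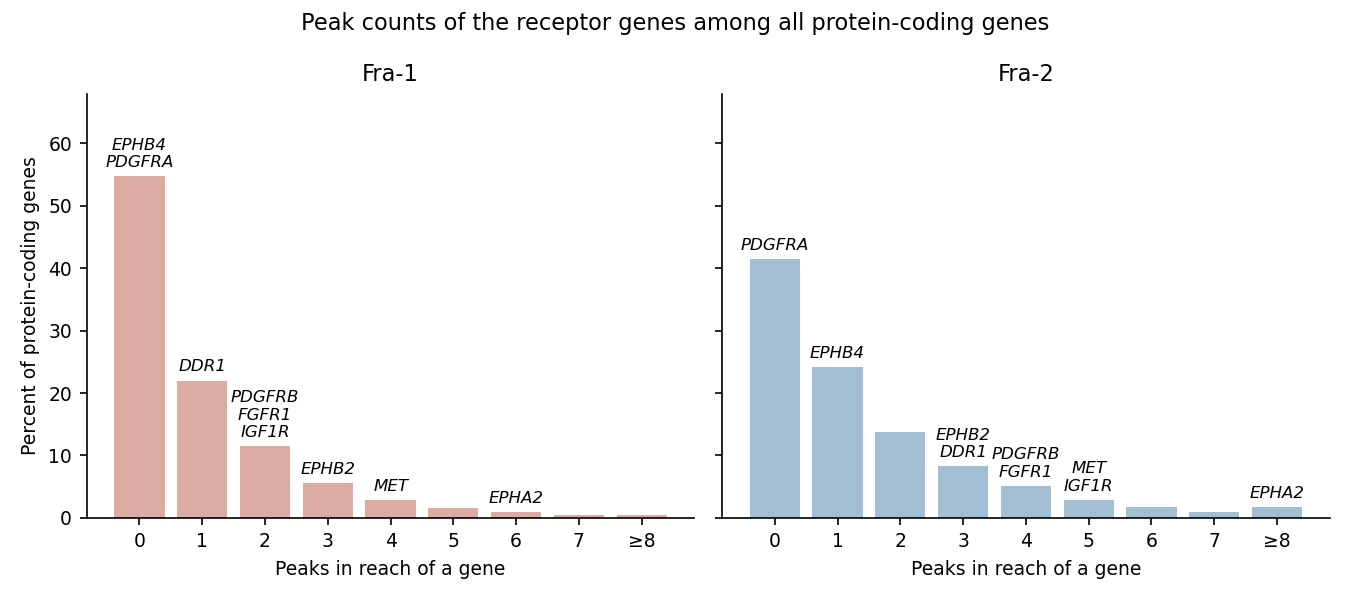
Percent of the 20098 protein-coding genes (vertical axis) with 0 to 7 or at least 8 peaks in reach (horizontal axis), for Fra-1 on the left and Fra-2 on the right. Gene names stand above the bar of their own count. EPHA2 and MET stand to the right, at 6 and 4 Fra-1 peaks and at 8 and 5 Fra-2 peaks, and PDGFRA at 0 in both panels.

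Over all 9 genes, the peaks lay away from reference promoters. None of the 20 Fra-1 peaks (upper bound 16.8%) and none of the 33 Fra-2 peaks (10.6%) had its centre within 1 kb of a reference TSS. Within 1 kb of any annotated TSS of a member were 3 Fra-1 peaks, at EPHA2 and IGF1R, and 4 Fra-2 peaks, at EPHA2, IGF1R and DDR1. Introns of the member's reference transcript held 12 Fra-1 peaks (60.0%, 36.1 to 80.9) and 15 Fra-2 peaks (45.5%, 28.1 to 63.6). Upstream of the gene were 5 Fra-1 and 9 Fra-2 peaks, downstream 3 and 7, and in exons of the member none. The member's own coding TSS was the nearest one for 16 Fra-1 peaks (interval 56.3 to 94.3%) and 21 Fra-2 peaks (63.6%, 45.1 to 79.6). No other protein-coding gene was in reach of 7 Fra-1 and 8 Fra-2 peaks. These positions were not counted over all peaks of the lists, so they are not shown to be particular to the members.

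The AP-1 element was present at most of these peaks. Within 100 bp of the centre, the element was found at 12 of 20 peaks for Fra-1 (60.0%, 36.1 to 80.9) and at 22 of 33 for Fra-2 (66.7%, 48.2 to 82.0), against 65.6% and 75.6% of all peaks of the lists outside repeat-like regions and 3.23% and 3.01% of control windows of equal length and like GC content 5 to 20 kb away. The control windows here and below belong to the whole lists, repeat-like peaks included, and were not drawn for the members' peaks alone. With elements elsewhere in the peak counted too, there were 13 Fra-1 peaks (65.0%) and 24 Fra-2 peaks (72.7%). A copy with at most 1 mismatch was near the centre of 19 Fra-1 and 31 Fra-2 peaks, a form that 94.3% and 96.1% of all such peaks and 50.4% and 50.6% of control windows held. The Fra-1 peak without it was the one of EPHA2 from 16470501 to 16470651 printed above. At least 2 copies of the exact element were in 3 peaks of each list, at MET, EPHB2 and FGFR1, and in 15.3% and 13.6% of all peaks. The members' intervals hold the value of all peaks for the exact element within 100 bp, the form with at most 1 mismatch and at least 2 copies. For elements elsewhere in the peak, no value over all peaks was computed.

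Split by sharing, 12 of 17 shared peaks had the element by their Fra-1 centre (70.6%, 44 to 89.7) and 11 of 17 by their Fra-2 centre (64.7%, 38.3 to 85.8), where 71.4% and 71.7% of all shared peaks did. None of the 3 peaks in the Fra-1 list alone had it (upper bound 70.8%), against 43.4% of all such peaks. Of the 16 peaks in the Fra-2 list alone 11 had it (68.8%, 41.3 to 89.0), against 81.1% of all such peaks. Both member values leave the value of all peaks inside their intervals.

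**Figure D4:**
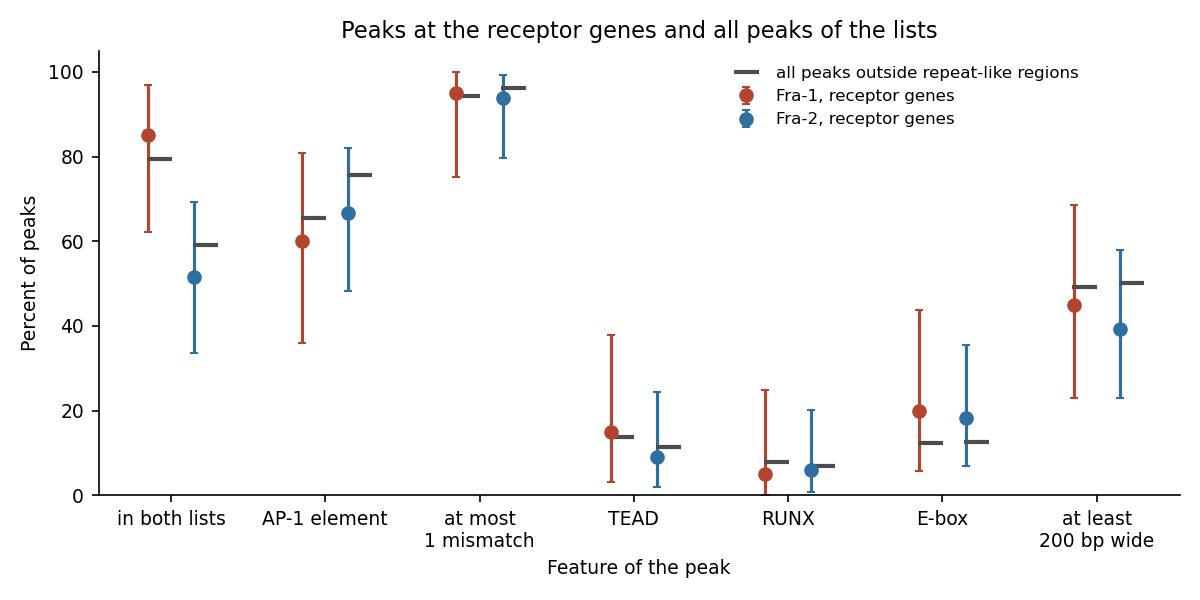
Percent of the receptor genes' peaks with each feature, as points with 95% exact binomial intervals, for Fra-1 (red, 20 peaks, left of each pair) and Fra-2 (blue, 33 peaks, right), with the percent over all peaks of the same list outside repeat-like regions as dark bars. Elements were sought within 100 bp of the centre. Every dark bar lies inside the interval beside it.

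Other elements were few. TEAD elements were near 3 Fra-1 peaks (15%, 3.21 to 37.9) and 3 Fra-2 peaks (9.09%, 1.92 to 24.3), against 13.8% and 11.3% of all peaks and 7.58% and 7.04% of control windows. Within 100 bp of the centre, their places were EPHA2 and IGF1R. The shared FGFR1 peak of 300 bp also held 1 TEAD element, not wholly within 100 bp of its centre and so not counted here. The RUNX element TGTGGTT was near 1 Fra-1 and 2 Fra-2 peaks, against 7.98% and 7.04% of all peaks and 3.15% and 3.07% of control windows. CAGGTG, the E-box that ZEB and SNAIL repressors recognise, was near 4 Fra-1 and 6 Fra-2 peaks, against 12.3% and 12.6% of all peaks and 19.6% and 20.8% of control windows. The cyclic AMP response element TGACGTCA was near none (upper bounds 16.8% and 10.6%), against 0.236% and 0.447% of all peaks and 0.0633% and 0.0646% of control windows. For each of these elements the value over all peaks lay inside the members' interval.

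Most of the members' peaks were narrow. The Fra-1 peaks were 100 to 300 bp wide with a median of 150 bp, and the Fra-2 peaks 100 to 450 bp with a median of 150 bp, where the medians of all peaks outside repeat-like regions were 150 and 200 bp. At least 200 bp wide were 9 Fra-1 peaks (45%, 23.1 to 68.5) and 13 Fra-2 peaks (39.4%, 22.9 to 57.9), against 49.1% and 50.2% of all. In the Fra-2 list the shared member peaks had a median of 200 bp and those without a partner 125 bp, as all peaks had 200 and 150 bp.

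Other genes of the same signalling system were examined for comparison. Of 21 further receptors of the same families, 7 had a Fra-1 and 12 a Fra-2 peak in reach, and 9 had neither. EPHB6, an ephrin receptor without kinase activity, had 4 peaks in each list, DDR2, the other collagen receptor, had 3 in each, and CSF1R had the 2 Fra-1 and 4 Fra-2 peaks it shares with PDGFRB. Of 20 ligands of the receptors, 14 had a Fra-1 and 15 a Fra-2 peak. The ligands with the most peaks were PDGFC (6 Fra-1, 5 Fra-2) and FGF1 and PDGFB, each with 4 and 5. Their role is to activate the platelet-derived and fibroblast growth factor receptors. HGF, the ligand of MET, had 1 peak in each list.

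Of 21 adaptors, effectors and regulators, 11 had a Fra-1 and 15 a Fra-2 peak. PTPN1, a phosphatase that acts on insulin-type receptors, had 6 Fra-1 and 10 Fra-2 peaks, CBLB, a ubiquitin ligase for activated receptors, had 5 in each list, and IGFBP3, which binds insulin-like growth factors, had 4 in each. STAT3, a transcription factor activated by receptor signalling, had 2 Fra-1 and 6 Fra-2 peaks and thus the same sum as IGFBP3. No gene of the 3 lists had Fra-1 peaks without Fra-2 peaks. That was rare over all genes too, as 45.3% had a Fra-1 peak and 42.7% had peaks of both lists. The shares for Fra-1, 33.3%, 70.0% and 52.4%, and for Fra-2, 57.1%, 75% and 71.4%, stand beside 45.3% and 58.6% of all genes and were not tested.

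**Figure D5:**
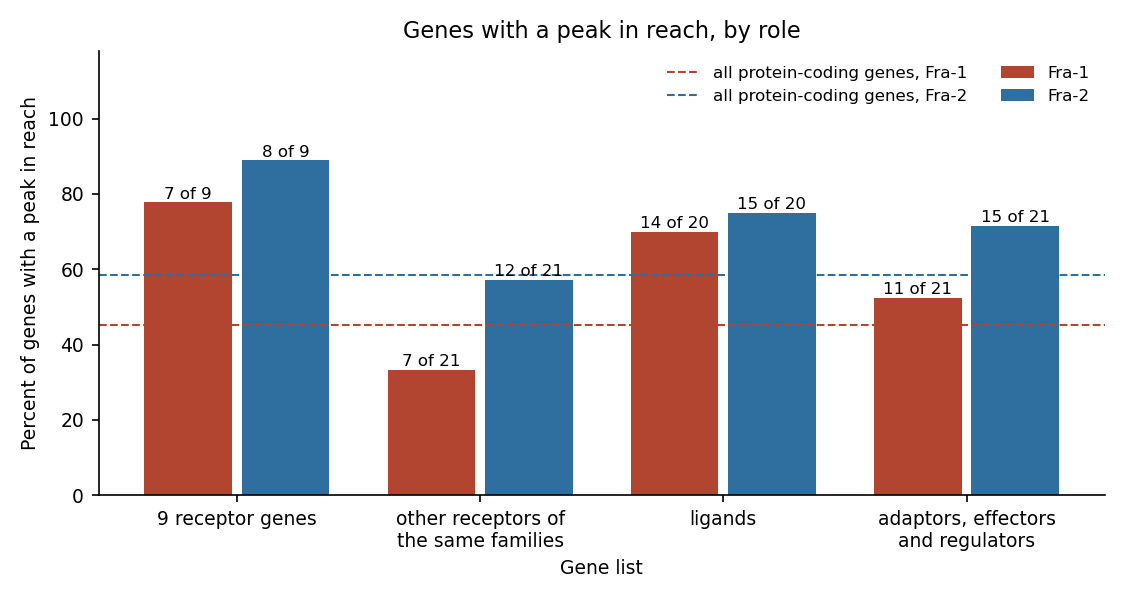
Percent of genes with a Fra-1 (red, left bar) or Fra-2 (blue, right bar) peak in reach for the 9 receptor genes and for lists of related receptors, ligands and downstream proteins, with counts above the bars and dashed lines at the percent of all protein-coding genes. The related receptors stand at 7 and 12 of 21, and the 9 receptor genes at 7 and 8 of 9.

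How many members had a peak depended on the distance allowed, most of all for Fra-1. In the gene body or within 10 kb of a TSS, 4 members had a Fra-1 peak (EPHA2, EPHB2, MET and IGF1R) and 6 a Fra-2 peak (also FGFR1 and DDR1), where 16.3% and 23.3% of all genes had one. Within 50 kb the counts were 4 and 8, against 31.2% and 42.9% of all genes.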

How the data were processed

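Fra-1 and Fra-2 peaks of MDA-MB-231 cells were analysed as deposited, 1 list per antibody. The deposited values are neither counts nor signal but other values, the positions of the peaks as the authors called them. Per the submitters' processing notes Bowtie2 and build hg19 were used. How peaks were called, from which reads and replicates, and whether the input entered is not given in the sources used here. All starts lie 1 above a multiple of 50, no nuclear peak passes a chromosome end of GRCh37, and depth is unknown.

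Peaks were assigned to genes by reach, paired by overlap of at least 1 bp, and searched for elements on both strands within 100 bp of the centre, with Python 3.11.15 and GENCODE 44, and with the packages scipy 1.17.1, pandas 2.3.3, numpy 2.4.6 and matplotlib 3.10.9. Control windows lay 5 to 20 kb away matched by GC bins of 5 percentage points. They were sought for every nuclear peak, repeat-like or not, which gave 9482 windows for Fra-1 and 12375 for Fra-2. Peaks counted as repeat-like on chromosome Y or M, up to 1 Mb from a gap of 1 Mb or more, or where more than 20% of 10-base words within 1000 bp of the centre were recurring ones. No annotation of interspersed repeats was used, so a peak outside repeat-like regions may still lie in such a repeat. Genes on chromosome Y were left out. Named were all 9 members, their peaks nearest to a TSS and widest, and the 3 genes with most peaks of each related list, with ties broken by symbol (HGF and STAT3 were named after their values were seen). As the lists hold no score, width stood in for a stricter threshold. The members and lists were chosen with earlier results of these data known. The scripts were tested on simulated data.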

Additional observations from a re-analysis of the deposited data

How the results depend on the processing

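The number of member peaks followed the reach and the width limit. The 20 Fra-1 peaks became 12 in the gene body or within 10 kb of a TSS, 13 within 50 kb and 9 with a width limit of 200 bp. The 33 Fra-2 peaks became 18 within 10 kb, 21 when a peak counted for the gene with the nearest TSS alone and 13 with the width limit. Members with a Fra-1 peak fell to 4 within 10 kb and 4 within 50 kb, against 7 at 100 kb. Of the 62 related genes, 32 had a Fra-1 peak, against 15 within 10 kb and 20 for peaks at least 200 bp wide, and 42 had a Fra-2 peak, against 25 within 10 kb. Each of these settings keeps fewer peaks or less sequence by construction. The other 47 comparisons of these counts and shares stayed within 1.5 times the count or within the interval of the share. They included TSSs of coding transcripts alone, peaks outside repeat-like regions, reciprocal overlap of 50%, centres within 500 bp and other windows for the AP-1 element. They also included a Fra-2 list shortened to the length of the Fra-1 list by width, with ties drawn at random (23 Fra-2 peaks at 7 members). Some of these comparisons could not move. Shortening the Fra-2 list leaves every Fra-1 count as it was. No member peak was repeat-like, so leaving out such regions could not change the members' counts. Of 126 counts for single members under these settings, 32 moved by over 1.5 times, all of them to fewer peaks: 8 within 10 kb, 5 within 50 kb, 5 by nearest TSS, 11 with the width limit and 3 with the shortened Fra-2 list. Those 3 were the Fra-2 counts of MET, at 3 against 5, of IGF1R, at 2 against 5, and of EPHB4, at 0 against 1. The peaks they lost were 100 bp wide, and which peaks of that width stayed was drawn at random. These 3 members are therefore not shown to depend on list length more than the others. Counts already at 0, those of PDGFRA and the Fra-1 count of EPHB4, could not fall. No paired analysis was possible because a single peak list per antibody was used. With 20 and 33 peaks and no read depth, moderate differences from all peaks cannot be seen.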

Other observations

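By the median, sequence around the members' peaks was richer in G and C than around all peaks, but not at every gene. The GC content within 100 bp of the centre had a median of 56.2% (Fra-1, 20 peaks, 32.8% to 68.2%) and 53.2% (Fra-2, 33 peaks, 35.3% to 68.2%), against 46.3% and 47.8% over all peaks of the lists outside repeat-like regions. The lowest values were at MET, whose peaks ranged from 32.8% to 47.3%, and the highest at the intron 2 peak of IGF1R. EPHA2, the member with the most peaks and so the most weight in these medians, ranged from 51.7% to 66.7%. The difference was not tested.

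The bases beside the AP-1 element also varied. The members' peaks held 28 separate copies of the element, in the peak or within 100 bp of a centre. Of these, 2 had the full form with A before and T after it, at IGF1R and DDR1 (7.14%), 12 had 1 of these bases and 14 had neither. Over 11401 copies within 100 bp of the centres of all peaks outside repeat-like regions, 14.7% had the full form. Among the members' peaks with an element, the nearest copy lay within 10 bp of the centre in 3 of 12 (Fra-1) and 8 of 22 (Fra-2). Its median distance was 40 bp at Fra-1 centres and 25.5 bp at Fra-2 centres, where it was 21 and 20 bp over all peaks.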
